A study of Homo sapiens with 7 samples.

Results

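The genes described here encode splicing factors and were chosen by symbol from the deposited RNA-seq table. Every symbol made of SRSF and a number, beginning with HNRNP, made of SF3A or SF3B and a number, or beginning with SNRP was kept, which gave 65 of 26175 genes. Of these, 12 were SRSF, 31 HNRNP, 9 SF3 and 13 SNRP symbols. The annotation lists 58 as protein-coding. The remaining 7 were the readthrough gene HNRNPUL2-BSCL2, the antisense gene HNRNPU-AS1 and the pseudogenes HNRNPA3P1, HNRNPA1P33, HNRNPA1P10, HNRNPKP3 and SNRPD2P2.

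Steady-state RNA and transcription initiation were measured in T-47D cells, a human luminal breast cancer line. The cells were the A1-2 derivative of this line, which overexpresses rat glucocorticoid receptor and carries an integrated MMTV luciferase reporter. All cells shared 1 growth condition, medium with 10% serum followed by at least 24 hours in 5% charcoal-treated serum. The FPKM values (fragments scaled by transcript length and sequencing depth) are 1 value per gene over 3 merged polyA-enriched RNA-seq replicates. The transcription start site (TSS) calls come from 1 of 2 Start-seq libraries. Start-seq sequences short capped nuclear RNA, so the 5′ end of a read marks the base at which RNA polymerase II began. The second Start-seq library and the MNase-seq and FAIRE-seq libraries were not used here.

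With 1 merged value and 1 set of calls there is no replicate error, read depth is unknown, and no difference could be tested. The luminal epithelial markers EPCAM, CDH1, KRT8, KRT18, KRT19, GATA3, FOXA1, ESR1 and PGR lay between 44.1 (ESR1) and 1142 FPKM (KRT8). Among markers of other cell types, KRT5 and KRT14 were listed at 0, PECAM1, PTPRC and VIM were at 0.864 FPKM or less, and COL1A1 was at 8.82 FPKM.

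Introns are removed by the spliceosome, which assembles on each intron from small nuclear ribonucleoproteins (snRNPs). The SNRP genes encode proteins of these particles, among them the Sm proteins that form a ring on the small nuclear RNAs. SF3A and SF3B are protein complexes of the U2 snRNP, which recognises the branch site. SR proteins (SRSF genes) carry arginine-serine-rich domains and often promote the use of exons, whereas hnRNP proteins (HNRNP genes) coat nascent pre-mRNA and often repress splice sites. Many of these factors also regulate the splicing of their own transcripts.

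A called gene TSS was assigned to a splicing factor gene when it lay within 1000 nt of one of its annotated starts on the same strand. In all, 49 of 10391 gene TSSs belonged to 45 splicing factor genes, each of them protein-coding. Antisense starts were called on the opposite strand, up to 1000 nt upstream (uaTSS) or up to 2000 nt downstream (daTSS) of the gene TSS. Start sequences of the member with the highest FPKM in each family are shown first, because they place the most abundant transcripts on the genome. Positions are in hg19, the bases run 5′ to 3′ along the gene's strand from 40 nt upstream to 10 nt downstream, and capitals mark positions -1 and +1, where +1 is the called start.

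SNRPB, chr20:2451433, minus strand: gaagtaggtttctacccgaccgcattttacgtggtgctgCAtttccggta
HNRNPA2B1, chr7:26240366, minus strand: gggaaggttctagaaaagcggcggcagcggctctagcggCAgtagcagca
SF3B2, chr11:65820270, plus strand: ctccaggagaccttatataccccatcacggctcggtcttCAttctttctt
SRSF9, chr12:120907295, minus strand: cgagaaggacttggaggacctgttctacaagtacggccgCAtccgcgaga

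All 4 starts had C at -1 and A at +1, the pyrimidine-purine step of the initiator. The SNRPB and HNRNPA2B1 calls coincided with an annotated start. The SF3B2 call lay 111 nt and the SRSF9 call 79 nt downstream of the nearest annotated start. The SRSF9 position fell in annotated coding sequence, as did the HNRNPM call and 1 of the 2 HNRNPL calls, which makes 3 of 49 (6.12%) beside 6.77% of the 10317 gene TSSs that could be assigned to a gene.

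Further sequences are shown for starts that carried a core promoter element. TATAA, the letters of a TATA box (TBP-type in the plot of motifs by family), was searched on the gene's strand from 100 nt upstream to 50 nt downstream. It was found at 4 of 49 splicing factor gene TSSs (8.16%) and at 3.36% of all gene TSSs. The members were SRSF2, SRSF3, SRSF7 and HNRNPAB.

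SRSF2, chr17:74733413, minus strand: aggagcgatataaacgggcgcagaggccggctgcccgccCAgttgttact
SRSF3, chr6:36562139, plus strand: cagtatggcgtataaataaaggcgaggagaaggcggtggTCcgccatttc
SRSF7, chr2:38978503, minus strand: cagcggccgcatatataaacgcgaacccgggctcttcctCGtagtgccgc
HNRNPAB, chr5:177631534, plus strand: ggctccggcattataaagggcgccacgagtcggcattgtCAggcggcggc

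The first T of TATAA lay at -32 in SRSF2, -30 in SRSF3, -27 in SRSF7 and -29 in HNRNPAB. Each of these 4 calls coincided with an annotated start. In a window for the first T from -35 to -24, which was set after these positions had been seen, the share over all gene TSSs was 2.43%. SR protein genes supplied 3 of the 4, or 3 of the family's 8 gene TSSs, and no SF3 or SNRP gene TSS held the exact letters TATAA in the window. Related letters were not counted, such as the tatata in the SF3B2 sequence above. The search therefore does not show that SF3 or SNRP starts lack TATA-type elements.

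A pyrimidine-rich start, C at +1 followed by at least 4 pyrimidines, is the mark of ribosomal protein genes and other genes of the translation apparatus. It was found at 53 of 73 gene TSSs of cytosolic ribosomal protein genes (72.6%), at 3.39% of all gene TSSs and at 3 of 49 splicing factor gene TSSs (6.12%). All 3 were SNRP genes, SNRPD2 and SNRPG of the Sm ring and SNRPA, which encodes protein A of the U1 snRNP. With the start allowed 1 nt to either side the count was 6 of 49 (12.2%, beside 7.51% of all), and SNRPB2, SNRPD1 and SF3B5 joined these 3.

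SNRPD2, chr19:46195209, minus strand: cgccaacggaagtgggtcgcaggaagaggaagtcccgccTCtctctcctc
SNRPA, chr19:41257203, plus strand: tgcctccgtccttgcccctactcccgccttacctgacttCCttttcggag
SNRPG, chr2:70520531, minus strand: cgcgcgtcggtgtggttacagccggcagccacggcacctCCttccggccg

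Splicing factor transcripts were abundant in these cells. Their median was 51.6 FPKM, with quartiles of 17.2 and 97.8 FPKM, beside a median of 0.528 FPKM over all genes of the table and 16.5 FPKM over the 9859 genes with a called gene TSS. At least 1 FPKM was reached by 54 of the 65 genes (83.1%), beside 46.9% of all genes. The SF3 family had the highest median, 81.8 FPKM, followed by SNRP with 53.8, SRSF with 50.8 and HNRNP with 41.3 FPKM. Restricted to protein-coding symbols the HNRNP median was 63.7 FPKM, with SF3 still highest. Restricted to genes with at least 1 FPKM it was 88.0, above SF3 with 81.8, SRSF with 63.6 and SNRP with 57.1 FPKM, so the order of the families depended on the low HNRNP symbols. The family ranges overlapped widely.

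**Figure D1:**
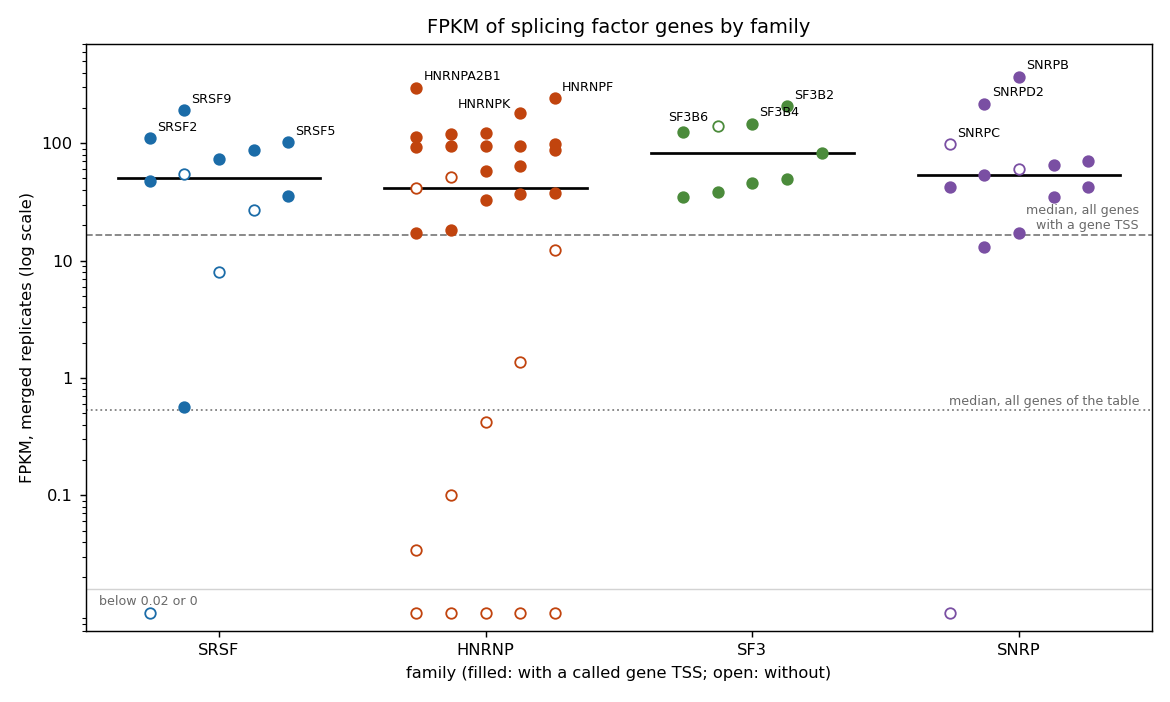
FPKM of the 65 splicing factor genes by family on a log axis, 1 point per gene, filled where a gene TSS was called and open where none was; short lines are family medians, and the dashed and dotted lines are medians of all genes with a gene TSS (16.5) and of all genes of the table (0.528). Genes below 0.02 FPKM or listed at 0 stand in the lane at the bottom, and the highest point is SNRPB at 369 FPKM.

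Among SR protein genes, SRSF9 was highest at 191 FPKM. SRSF2, which encodes the SC35 protein, was at 110 FPKM and SRSF5 at 102 FPKM. SRSF3, SRSF1, SRSF6, SRSF7, SRSF11 and SRSF4 followed in that order, between 87.7 and 27.1 FPKM. SRSF8 was lower at 8.01 FPKM, and SRSF12 was listed at 0. The SR protein genes thus spread over a wide range, with 9 of 12 above the median of genes with a called start.

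SRSF10, whose product can act as a splicing repressor, was listed at 0.568 FPKM. Its row in the table places the gene on the unlocalised contig chr1_gl000191_random, where it was the only gene of the table, while Start-seq called its start on the assembled chromosome at chr1:24306802 with a daTSS 278 nt downstream. The FPKM belongs to the contig row, so the level of the chromosomal copy is not known from it. In all, 295 genes of the table were placed on random, unplaced or haplotype contigs, 128 of them with at least 1 FPKM, and 89 had a gene TSS on an assembled chromosome.

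In the HNRNP family the highest values were 298 FPKM for HNRNPA2B1, 241 FPKM for HNRNPF and 180 FPKM for HNRNPK. HNRNPA2B1 encodes core proteins of hnRNP particles, HNRNPF a protein that binds runs of G, and HNRNPK a protein that binds C-rich RNA. HNRNPM, HNRNPD and HNRNPL lay between 114 and 122 FPKM. Paralogs spread widely. Beside HNRNPF, HNRNPH2 stood at 94.5, HNRNPH1 at 88.0 and HNRNPH3 at 63.7 FPKM. Beside HNRNPA2B1, HNRNPA1 stood at 58.2, HNRNPA0 at 36.9 and HNRNPA3 at 18.3 FPKM. The lowest protein-coding genes with at least 1 FPKM were HNRNPA1L2 at 12.4 FPKM and HNRNPLL, a regulator of alternative splicing in lymphocytes, at 17.1 FPKM.

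The HNRNPCL genes and the pseudogenes were under 1 FPKM, unlike the HNRNPA1-like gene HNRNPA1L2. HNRNPCL1, HNRNPCL3 and HNRNPCL4, which share 1 locus in the table, were each under 0.1 FPKM, HNRNPCL2 and HNRNPKP3 were listed at 0, and HNRNPA3P1 was at 0.422 FPKM. HNRNPA1P10 was near 0 and shares the locus of HNRNPA1, and HNRNPA1P33 was at 0.0345 FPKM. Fragments from such near-identical copies can be assigned to either gene, so values of HNRNPA1, HNRNPA1L2, HNRNPA3, HNRNPC and HNRNPK and of their copies are uncertain by that sharing. The same holds for HNRNPUL2 (32.6 FPKM) and the readthrough HNRNPUL2-BSCL2 (41.3 FPKM), which share exons, and for HNRNPH2, whose locus in the table also holds the readthrough RPL36A-HNRNPH2. HNRNPU-AS1, named as antisense to HNRNPU (95.2 FPKM), was at 1.38 FPKM in these strand-specific libraries. Its listed locus does not overlap that of HNRNPU and is shared with COX20.

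Within the U2 snRNP, all 6 SF3B genes were higher than all 3 SF3A genes. SF3B2 stood at 207 FPKM, SF3B4 at 147, SF3B6 at 140 and SF3B5 at 124 FPKM, and SF3B1, the scaffold that holds the branch site, at 81.8 FPKM. SF3B3 was lowest of the SF3B genes at 49.1 FPKM. SF3A3 had 45.8, SF3A2 38.5 and SF3A1 34.5 FPKM, and the medians were 132 FPKM for SF3B and 38.5 FPKM for SF3A.

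Among snRNP protein genes, SNRPB, which encodes the Sm proteins B and B′, was the most abundant splicing factor transcript at 369 FPKM, above 99.7% of all genes. SNRPD2 followed at 217 FPKM and SNRPC, of the U1 snRNP, at 98.0 FPKM. The proteins of the Sm ring are present together in each particle, yet their transcripts ranged from SNRPB down to SNRPD3 at 60.3, SNRPF at 53.8, SNRPG at 42.6, SNRPD1 at 34.8 and SNRPE at 17.2 FPKM. SNRPA, of the U1 snRNP, was at 69.9 FPKM. The U2 snRNP genes SNRPB2 and SNRPA1 were at 65.6 and 13.0 FPKM. SNRPN, an imprinted gene that shares its locus with SNURF, was at 42.1 FPKM, and the pseudogene SNRPD2P2 was listed at 0.

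Genes that act beside these families were counted from lists chosen by role. All 47 of a list of other spliceosome genes had at least 1 FPKM, with a median of 42.4 FPKM, and 45 had a called gene TSS. Of 35 other splicing regulators, 32 had at least 1 FPKM, the median was 22.4 FPKM and 27 had a called gene TSS. At the gene TSSs of these lists, uaTSSs were called at 66.7% and 72.4% and daTSSs at 27.1% and 37.9%.

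A gene TSS was called for 45 of the 58 protein-coding splicing factor genes. Over the table, 37.7% of genes had a call, 75.2% of genes with at least 1 FPKM and 89.0% of genes with at least 30 FPKM. The 7 symbols that are not protein-coding mRNA genes could not be compared, since calls were sought around annotated mRNA starts. HNRNPF had 3 gene TSSs, at chr10:43892709, chr10:43903223 and chr10:43904633, and HNRNPL and HNRNPUL1 had 2 each. The calls lay a median of 3 nt from an annotated start, beside 10 nt over all assigned gene TSSs. Of the 49 calls, 41 lay within 50 nt, whereas those of HNRNPR, SNRPA1, HNRNPL (1 of 2) and HNRNPUL1 (1 of 2) lay over 200 nt away.

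Of the 13 protein-coding genes without a gene TSS, 7 had at least 10 FPKM. These were SF3B6 (140 FPKM), SNRPC (98.0 FPKM), SNRPD3 (60.3 FPKM), SRSF6 (54.5 FPKM), HNRNPDL (51.6 FPKM), SRSF4 (27.1 FPKM) and HNRNPA1L2 (12.4 FPKM). The others, SRSF8, SRSF12 and the 4 HNRNPCL genes, were all under 10 FPKM. No gene TSS of any gene lay within 1000 nt of the loci of SF3B6, SNRPC, SRSF6 or SRSF4. Near SNRPD3 only calls of GUCD1 on the other strand were found, near HNRNPDL only 1 of ENOPH1, and near HNRNPA1L2 only 1 call that could not be assigned to a gene. Transcript abundance and a called start were therefore not paired at these genes, and Start-seq reads that would show the initiation there were not analysed here. Over all genes with at least 30 FPKM, a level that SRSF4 and HNRNPA1L2 did not reach, 3231 of 3632 had a call (89.0%). Such missing calls were therefore not confined to splicing factor genes. The share over all genes with at least 10 FPKM is not given here, so the 7 genes are not a sign of unusually few calls.

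Upstream antisense starts were called at 35 of 49 splicing factor gene TSSs, which is 71.4% (95% exact Clopper-Pearson interval 56.7 to 83.4, which covers counting error only), beside 53.1% of all gene TSSs. Among genes with at least 30 FPKM, a level chosen for this split after the data had been seen, the shares were 77.3% of 44 and 59.0%. With 1 gene TSS per member, 68.9% of 45 members had a uaTSS. The share was highest at HNRNP gene TSSs, with 20 of 23 (87.0%). These 20 include 3 of HNRNPF, 2 of HNRNPL and 2 of HNRNPUL1, so they are not separate genes. SRSF and SF3 genes each had 5 of 8 (62.5%), and SNRP genes 5 of 10. The 3 HNRNP gene TSSs without a uaTSS, of HNRNPA2B1, HNRNPR and HNRNPLL, each had a daTSS, so no HNRNP gene TSS lacked an antisense call.

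Downstream antisense starts were called at 16 of 49 (32.7%, interval 19.9 to 47.5), beside 28.4% of all gene TSSs. Among genes with at least 30 FPKM the shares were level, at 13 of 44 member gene TSSs (29.5%) and 29.9% of all. SRSF genes had 5 of 8, HNRNP genes 8 of 23 and SNRP genes 3 of 10, whereas no daTSS was called at the 8 SF3 gene TSSs, a count that allows a share of up to 36.9% (exact interval). Both kinds were called at 11 gene TSSs (22.4%, beside 17.5% of all), a uaTSS alone at 24 (49.0%, beside 35.6%), a daTSS alone at 5 (10.2%, beside 11.0%) and neither at 9 (18.4%, beside 35.9%). The 9 without an antisense call were SRSF2, SRSF11, SF3B5, SF3B3, SF3A1, SNRPD2, SNRPA, SNRPN and SNRPA1. The 5 with a daTSS alone were SRSF10, HNRNPA2B1, HNRNPR, HNRNPLL and SNRPE. The share with a daTSS lay near the background over all gene TSSs. Without gene TSSs that have another within 5000 nt, it was 45.2% of 31 members beside 32.9% of all such gene TSSs.

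**Figure D2:**
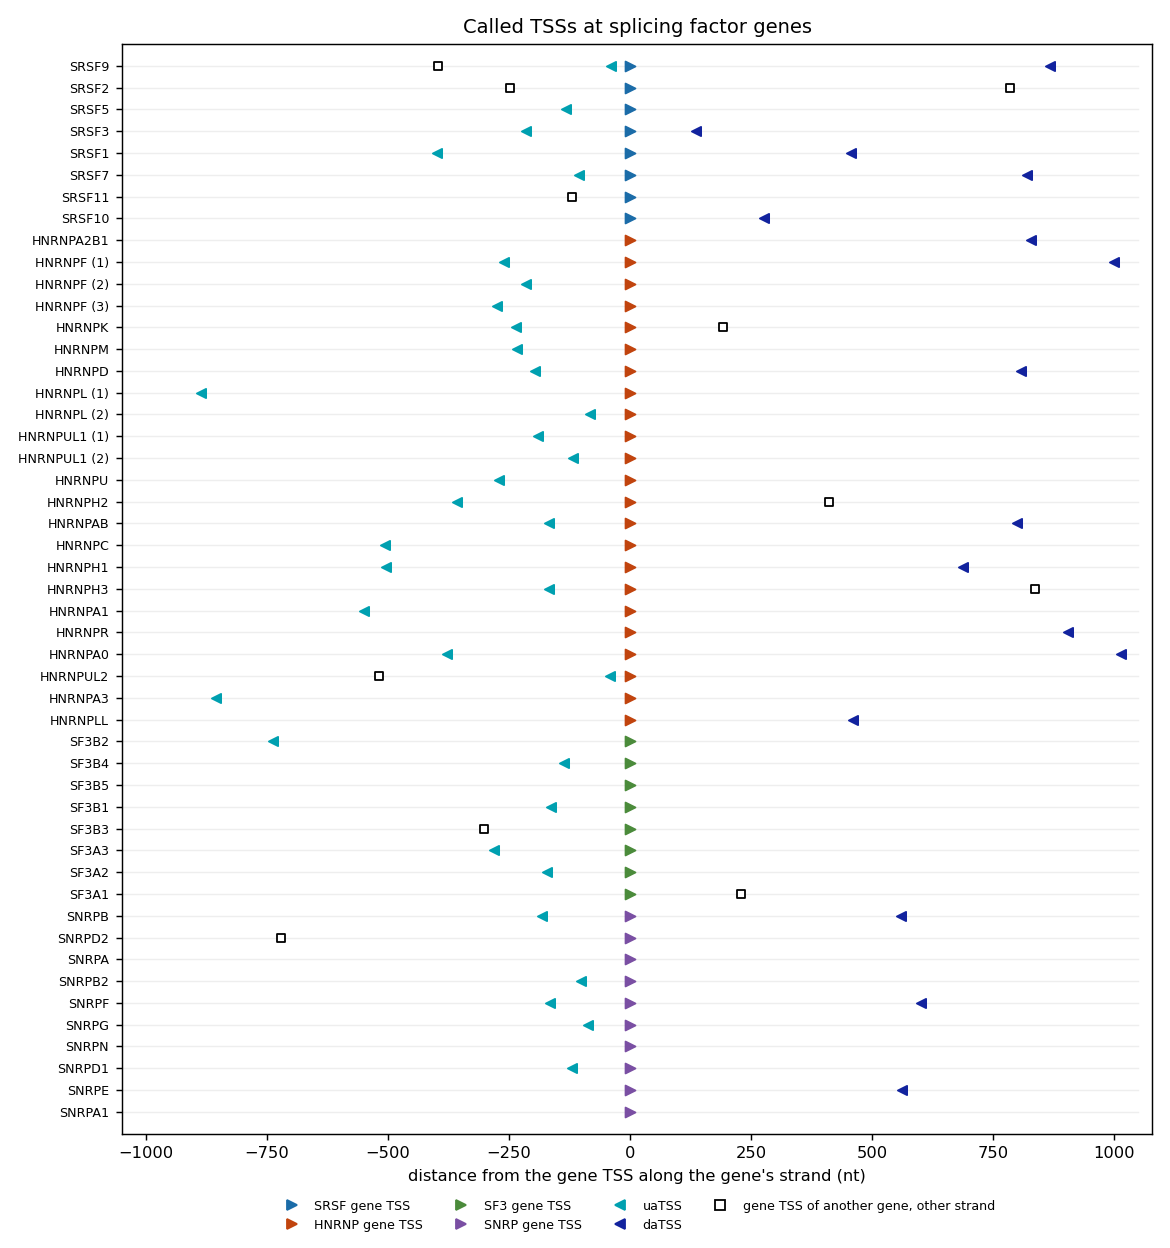
Called starts at the 49 splicing factor gene TSSs, 1 line each, by distance in nt along the gene's strand; right-pointing triangles are gene TSSs, left-pointing triangles are uaTSSs (left of 0) and daTSSs (right of 0), and open squares are gene TSSs of other genes on the other strand. uaTSSs lie from 40 to 887 nt upstream, and 8 of 16 daTSSs lie over 800 nt downstream.

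The uaTSSs lay a median of 197 nt upstream of the called gene TSS, from 40 nt in SRSF9 to 887 nt in HNRNPL, beside a median of 200 nt over all uaTSSs. The SRSF9 call lay 79 nt downstream of the nearest annotated start, so its uaTSS stood downstream of that start. The HNRNPL uaTSS at chr19:39341435 lay downstream of another gene TSS of the same gene, within 2000 nt. The same held for HNRNPUL1 at chr19:41769282 and HNRNPF at chr10:43903437. Medians were 248 nt for HNRNP, 172 nt for SF3, 133 nt for SRSF and 120 nt for SNRP genes. The 5 SNRP distances were all short, between 86 and 182 nt.

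The daTSSs lay a median of 744.5 nt downstream, beside 507 nt over all 2956. In SRSF genes the distances were 137 nt (SRSF3), 278 nt (SRSF10), 458 nt (SRSF1), 820 nt (SRSF7) and 868 nt (SRSF9), spread across the range. The 3 SNRP distances fell close together, at 560 nt (SNRPB), 562 nt (SNRPE) and 601 nt (SNRPF). HNRNP distances were 461 nt (HNRNPLL), 688 nt (HNRNPH1), 801 nt (HNRNPAB), 809 nt (HNRNPD), 829 nt (HNRNPA2B1), 906 nt (HNRNPR), 1000 nt (HNRNPF) and 1016 nt (HNRNPA0), mostly long. The HNRNPR call lay 615 nt upstream of the nearest annotated start, so its daTSS was much closer to that start than 906 nt. Beyond 800 nt, a limit chosen after the distances had been seen, lay 8 of the 16 members' daTSSs and 25.2% of all daTSSs.

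The sequences of the 3 nearest and 3 farthest daTSSs are shown because they bound this range. They run 5′ to 3′ along the antisense strand from 20 nt upstream to 10 nt downstream, with -1 and +1 of the antisense start in capitals.

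SRSF3 daTSS, chr6:36562276, minus strand: ccatttccacctcattcccTCtttcgctgg
SRSF10 daTSS, chr1:24306524, plus strand: ctcgctcccacgcggcggcTGaggcccgct
SRSF1 daTSS, chr17:56084256, plus strand: aaggccttggagccttcccCAactactcgg
HNRNPR daTSS, chr1:23670538, plus strand: gcgtttcggccgggctaggCCcacagccgc
HNRNPF daTSS, chr10:43891709, plus strand: cacccacctcgttttctttTGttcaggaca
HNRNPA0 daTSS, chr5:137089090, plus strand: ccgcctccgccgccgccgtAAccaccgtag

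SRSF10, SRSF1 and HNRNPF had a pyrimidine at -1 and a purine at +1, and the other 3 did not. Over all 16 daTSSs of splicing factor genes 9 had this step (56.2%), beside 66.9% of all daTSSs. In the gene's own annotation 12 of the 16 daTSSs lay in an intron and in no exon of any transcript (75.0%, beside 60.1%), while those of HNRNPA2B1, HNRNPA0 and SNRPE lay in a first exon and that of HNRNPH1 in another exon.

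A gene TSS of another gene lay on the other strand within 1000 nt upstream at 6 of 49 splicing factor gene TSSs (12.2%, beside 11.5% of all). SRSF9 faced DYNLL1, a dynein light chain gene at 354 FPKM, at 397 nt. SRSF2 faced MFSD11 (27.0 FPKM) at 248 nt and SRSF11 faced LRRC40 (11.7 FPKM) at 120 nt. SF3B3 faced COG4 (69.6 FPKM), a Golgi trafficking gene, at 301 nt, HNRNPUL2 faced TTC9C (42.2 FPKM) at 518 nt and SNRPD2 faced QPCTL (8.46 FPKM) at 722 nt. Just outside the limit, HNRNPA2B1 faced CBX3 (138 FPKM) at 1003 nt and HNRNPA1 faced CBX5 (82.0 FPKM) at 1124 nt, so both of these hnRNP genes stood head to head with a gene for a heterochromatin protein of the HP1 family. Of the 6 divergent gene TSSs, 2 had a uaTSS (SRSF9 at 40 nt and HNRNPUL2 at 41 nt), beside 16.2% of all divergent gene TSSs. Of the 43 others 33 had a uaTSS (76.7%, beside 57.9%).

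On the other strand within 2000 nt downstream, a gene TSS of another gene lay at 5 of 49 (10.2%, beside 3.14%). These neighbours were RMI1 193 nt from HNRNPK, CCDC157 229 nt from SF3A1, GLA 412 nt from HNRNPH2, MFSD11 786 nt from SRSF2 and PBLD 837 nt from HNRNPH3. None of the 5 had a daTSS, and of all gene TSSs with such a neighbour 0.307% had one. The authors' calling removed antisense calls near an annotated start on the same strand, so few daTSSs could be called there.

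The median FPKM by antisense call was 88.0 for members with both calls, 94.8 with a uaTSS alone, 17.2 with a daTSS alone and 49.1 with neither. Over all gene TSSs the same medians were 21.3, 18.6, 13.1 and 13.9 FPKM. The daTSS-only value rests on 5 gene TSSs that ran from 0.568 FPKM (SRSF10) to 298 FPKM (HNRNPA2B1). The SRSF10 value is that of the contig row, and without it the daTSS-only median was 27.5 FPKM. The member median was above the overall median in each class.

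At the start itself, 28 of 49 splicing factor gene TSSs had a pyrimidine at -1 and a purine at +1 (57.1%), beside 66.1% of all gene TSSs. SRSF genes had this step at 7 of 8 and HNRNP genes at 11 of 23. C at +1 was found at 24.5% of the members and 13.8% of all gene TSSs. Some of these C starts belonged to HNRNPC and HNRNPH1, whose transcripts begin with the bases that follow the first letter of CCATTT. The letters CCATTT on the gene's strand, first base between -5 and +10, were found at HNRNPC and HNRNPH1 (first base at -1), SNRPF (-2), SRSF3 (+4) and HNRNPD (+6), which is 5 of 49 (10.2%) beside 0.558% of all gene TSSs. This motif was picked after the members' start sequences had been read, so the count is a description and supports nothing.

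HNRNPC, chr14:21737584, minus strand: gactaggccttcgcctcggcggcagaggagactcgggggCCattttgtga
HNRNPH1, chr5:179050672, minus strand: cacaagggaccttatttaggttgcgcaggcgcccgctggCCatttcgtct
SNRPF, chr12:96252743, plus strand: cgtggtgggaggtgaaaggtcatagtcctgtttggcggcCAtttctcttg
HNRNPD, chr4:83295144, minus strand: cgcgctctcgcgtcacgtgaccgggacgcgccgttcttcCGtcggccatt

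CCATTT is the reverse complement of AAATGG, whose ATGG it shares with the ATGGCG letters bound by YY1. In SRSF3 the CCATTT overlaps a reverse-strand ATGGCG, and in HNRNPD the shown bases end within it.

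Other short motifs were counted on both strands from 100 nt upstream to 50 nt downstream, as letters and not as bound sites. GGGCGG (SP1-type) was in 40.8% of the members' windows and 54.8% of all, CCAAT (NF-Y-type) in 24.5% and 21.1%, CCGGAA (ETS-type) in 26.5% and 21.6%, and ATGGCG (YY1-type) in 26.5% and 14.3%. Counts by family were small, and differences between families were not tested. HNRNP windows held GGGCGG at 14 of 23 (60.9%, near the 54.8% of all) and CCGGAA at 2 of 23. HNRNPF and HNRNPL each supplied more than 1 of these 14 windows. SNRP windows held GGGCGG at 1 of 10 and CCGGAA at 5 of 10 (SNRPB, SNRPB2, SNRPD1, SNRPE and SNRPG). In SF3 windows ATGGCG was found at 5 of 8 (SF3A1, SF3B1, SF3B3, SF3B4 and SF3B5) and CCGGAA at 4 of 8. The ATGGCG letters stood downstream of the start in SF3B1 (+30), SF3B3 (+17) and SF3B4 (+18), and upstream in SF3A1 (-9) and SF3B5 (-50). Letters that lie in coding sequence were not set apart in these counts. CCAAT was found at 8 of 23 HNRNP windows, with 3 copies in HNRNPA1 first placed at -95, -65 and -35. GC content of the 100 nt around the start had a median of 64.0% in the members and 68.0% over all gene TSSs.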

How the data were processed

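The deposited RNA-seq values are FPKM, which the authors estimated with Cufflinks 2.2.1 after quality filtering, adapter removal with cutadapt 1.2.1, alignment with TopHat2 2.0.4, removal of duplicates and merging of the 3 replicates. The deposited TSS lists give 1 hg19 position per call, from uniquely mapped Start-seq reads aligned with Bowtie 0.12.8, and the score column the authors deposited was 0 in every row. Symbols of 28 genes had been turned into dates. The table had 0 unmapped per-sample columns.

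Calls were joined by their shared identifier. Each gene TSS was assigned to the nearest annotated start on its strand within 1000 nt, among genes of the table, older symbols included, and 74 stayed unassigned. Gene models were GENCODE lifted to GRCh37 and sequences GRCh37. Medians of log2(FPKM + 0.1) used a pseudocount of 0.1. Intervals are exact at 95%. The assignment, strand orientation and start motifs were tested on simulated data. Python 3.11.15, numpy 2.4.6, scipy 1.17.1, pandas 2.3.3 and matplotlib 3.10.9 were used.

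Genes were named by rule: per family the 3 highest and 2 lowest FPKM, members without a gene TSS, with several, with a divergent gene TSS, a daTSS or a pyrimidine-rich start, and those under 1 FPKM. Others were named after their values were seen. The members, lists and rules were chosen with earlier results of these data known.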

Additional observations from a re-analysis of the deposited data

How the results depend on the processing

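Of 47 alternatives, 41 left the result within its 95% interval or, for a count, near it, and 6 moved it. Several intervals were wide, so staying within one is a weak check. The HNRNP median went from 41.3 to 88.0 FPKM with only members of at least 1 FPKM, inside its interval of 12.4 to 94.4. The count of members with a called gene TSS was 45. It was 50 with any call near the locus on either strand, and 43 within 200 nt of an annotated start. The difference of median log2(FPKM + pseudocount) between the members and all genes was 6.36, and it became 5.11 with a pseudocount of 1, 1.64 against genes with a called gene TSS and 2.16 with only genes of at least 1 FPKM on both sides, a comparison added after the data had been seen. In a window from 200 nt upstream to 100 nt downstream GGGCGG was in 63.3% of the members and 72.3% of all gene TSSs. GC content over 400 nt was 61.2% beside 67.25%. By the nearest transcript alone, 93.8% of the members' daTSSs lay in an intron, beside 71.2% of all. No paired analysis was possible because the deposited values are 1 merged FPKM and the calls of 1 library, and leaving out a replicate could not be run for the same reason. A missing call can reflect read depth, which is unknown here.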
